A study of Mus musculus with 21 samples.

Results

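Tcf7l2, Prkcd, Lef1, Tnnt1, Ramp3, Ntng1, Slc17a6, Rgs16 and Plekhg1 are genes whose transcripts mark neurons of the thalamus and habenula, tissue that lies against the dorsal hippocampus and can be carried along when the hippocampus is dissected. They were taken by symbol from the table of counts per gene, and all 9 of the 9 symbols were found among its 24498 genes. All 9 also passed the filter on low counts that left 14578 genes for testing. Levels are given as CPM, counts scaled to 1000000 gene reads per library with TMM factors, in those ethanol libraries whose gene reads exceeded 1000000.

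The study sequenced RNA from the hippocampus of male mice of 8 weeks, asking how the response to ethanol depends on ACSS2, the enzyme that makes acetyl-CoA from acetate. Ethanol was given by intraperitoneal injection at 2 g/kg as a 20% solution, and the time between injection and dissection was not stated. The knockdown arm received an AAV2/9 vector with a U6-driven short hairpin RNA against Acss2 and a CMV-driven EGFP. By the sample protocol this vector was placed into the dorsal hippocampus, while the wording of the series design leaves room for a systemic injection. A vector for the control arm was not described, and neither promoter restricts the vector to 1 cell type. The groups used here were dorsal hippocampus of the knockdown arm after ethanol (dorsal knockdown, n = 4), dorsal hippocampus of the control arm after ethanol (dorsal control, n = 3), ventral hippocampus of the knockdown arm after ethanol (ventral knockdown, n = 3) and ventral hippocampus of the control arm after ethanol (ventral control, n = 4). A single ethanol library of total hippocampus from the knockdown arm is shown with them. It entered no comparison between groups, but it is among the 15 libraries of the correlations and their permutation tests. Whether the replicates of a group are different mice is not stated, so each p-value speaks of library-to-library spread, which may be technical.

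These 15 libraries held 2819837 to 13240179 gene reads, and 57.4% to 81.0% of the reads aligned to 1 place lay within genes. Gene reads came to only 5021 in dorsal knockdown 5 and 8744 in ventral knockdown 1, which also received ethanol, and to between 4279 and 221847 in the 4 untreated dorsal libraries, where 0.991% to 1.43% of such reads lay within genes. None of these 6 entered the comparisons below. Acss2, the targeted gene, had 17.9 to 44.1 CPM in dorsal knockdown against 52.7 to 58.6 CPM in dorsal control. By the quasi-likelihood test of edgeR its log2 fold change there was -0.84 (SE 0.32, unadjusted p = 0.0199, adjusted p = 0.964). In ventral tissue it was -0.22 (SE 0.32, unadjusted p = 0.517), so Acss2 itself was not called in either region. In ventral tissue Acss2 had 28.8 and 36.5 CPM in ventral knockdown 2 and 4 but 63.8 CPM in the library labelled ventral knockdown 3, against 47.5 to 53.9 CPM in ventral control. Acss2 also stood at 58.0 CPM in the library labelled total knockdown, so neither of these libraries shows the lower level that its label implies, and the main ventral results are given with and without the first.

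Thalamic relay neurons carry sensory signals to the cortex and, like habenular neurons, load glutamate into synaptic vesicles with VGLUT2, the product of Slc17a6. Hippocampal pyramidal neurons use mainly VGLUT1, the product of Slc17a7. TCF7L2 and LEF1 are transcription factors at the end of the Wnt/beta-catenin pathway, and in the postnatal brain TCF7L2 is best known from thalamus and habenula. None of these genes is confined to that tissue: Prkcd also marks neurons of the central amygdala, Lef1 is active in brain endothelium, and Slc17a6 is also used in parts of the subicular and retrosplenial cortex.

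The sequence before the start site is shown for the pair of members whose levels ran together most closely by rank, Slc17a6 and Rgs16, and for the 2 members that encode TCF/LEF factors, Tcf7l2 and Lef1, since these factors bind a core motif whose letters can be searched. Each run is the 250 bases upstream of the most 5′ listed start in RefSeq, build GRCm38.p6, written 5′ to 3′ on the gene's strand, with capitals for the TCF/LEF core CTTTG or its other-strand form CAAAG. The windows are chr7:51621580-51621829 (+) for Slc17a6, chr1:153740103-153740352 (+) for Rgs16, chr19:55741560-55741809 (+) for Tcf7l2 and chr3:131110047-131110296 (+) for Lef1.
Slc17a6: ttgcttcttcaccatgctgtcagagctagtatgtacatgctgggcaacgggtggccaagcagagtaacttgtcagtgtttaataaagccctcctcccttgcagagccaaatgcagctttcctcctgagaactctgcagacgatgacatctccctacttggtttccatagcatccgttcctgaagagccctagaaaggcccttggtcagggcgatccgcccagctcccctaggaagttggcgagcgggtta
Rgs16: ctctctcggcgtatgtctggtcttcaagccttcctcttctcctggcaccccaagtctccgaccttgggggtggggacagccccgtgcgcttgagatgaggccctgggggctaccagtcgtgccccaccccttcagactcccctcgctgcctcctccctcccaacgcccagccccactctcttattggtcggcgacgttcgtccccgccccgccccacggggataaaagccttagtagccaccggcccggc
Tcf7l2: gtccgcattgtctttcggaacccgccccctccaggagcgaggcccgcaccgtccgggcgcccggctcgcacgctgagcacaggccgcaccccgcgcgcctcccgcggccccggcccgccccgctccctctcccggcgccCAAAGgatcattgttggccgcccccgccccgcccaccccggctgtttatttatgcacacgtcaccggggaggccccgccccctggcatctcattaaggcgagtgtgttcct
Lef1: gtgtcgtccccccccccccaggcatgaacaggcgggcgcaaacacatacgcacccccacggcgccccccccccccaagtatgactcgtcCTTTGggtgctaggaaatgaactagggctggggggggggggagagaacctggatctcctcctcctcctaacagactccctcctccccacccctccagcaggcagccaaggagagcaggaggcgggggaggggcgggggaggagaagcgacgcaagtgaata
The Tcf7l2 window held 1 CAAAG and the Lef1 window 1 CTTTG, while these letters did not occur in the Slc17a6 and Rgs16 windows. Over all 9 members, 4 windows held the motif on either strand (Tcf7l2, Prkcd, Lef1 and Ntng1), against 48.6% of 32851 RefSeq windows of the same length. The windows differed in base composition, with 53.2% G or C for Slc17a6, 66.4% for both Rgs16 and Lef1, and 72.8% for Tcf7l2. A match is a run of letters, not a shown binding site, and its absence says nothing about the factor.

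All 9 markers had at least 1 read in each of the 15 libraries, though Tnnt1 had only 1 read in ventral control 3. Per kilobase of exon, Prkcd was highest at 5.95 ± 6.15 CPM per kb (SD, n = 15), followed by Ntng1 at 4.59 ± 2.15, Rgs16 at 3.76 ± 1.51, Slc17a6 at 3.47 ± 3.39, Ramp3 at 2.75 ± 1.81 and Plekhg1 at 2.57 ± 0.743 CPM per kb. Lef1 at 0.960 ± 0.480, Tcf7l2 at 0.785 ± 0.251 and Tnnt1 at 0.561 ± 0.266 CPM per kb closed the order. Plekhg1 lay above Lef1 in 15 of 15 libraries, and no other neighbours in the order kept 1 order throughout: Prkcd lay above Ntng1 in 8 of 15 and Slc17a6 above Ramp3 in 7 of 15. Per kilobase the average was 3.47 CPM for Slc17a6, beside 250.4 for Slc17a7, 48.0 for the CA1 gene Wfs1 and 5.57 for the dentate gene Prox1, which lay within the range of the markers.

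Some of the genes that define thalamus and habenula were at or near 0 and others were measured. Gbx2, which specifies thalamic neurons, was absent from 12 of the 15 libraries and reached 0.218 CPM at most, and Shox2 was absent from 9 and reached 0.254 CPM. Pou4f1, which specifies medial habenular neurons, was absent from 8 and reached 0.267 CPM. The habenular nicotinic receptor subunits Chrna3 and Chrnb3 reached 1.53 and 2.00 CPM. A level of 3 reads corresponds to 0.227 to 1.06 CPM in these libraries. The thalamic list also held Rora, at 20.3 to 103.1 CPM, and Zic1 and Zic4, which reached 134.4 and 28.2 CPM. The habenular list held Gpr151, at 0 to 6.30 CPM, and the neuropeptide genes Tac1 and Tac2, which reached 28.1 and 8.90 CPM. Several of these genes are also active outside thalamus and habenula. The name of the set describes the genes, and the tissue that the RNA came from was not tested. In bulk RNA, fewer cells of a type and less RNA per cell cannot be told apart.

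**Figure D1:**
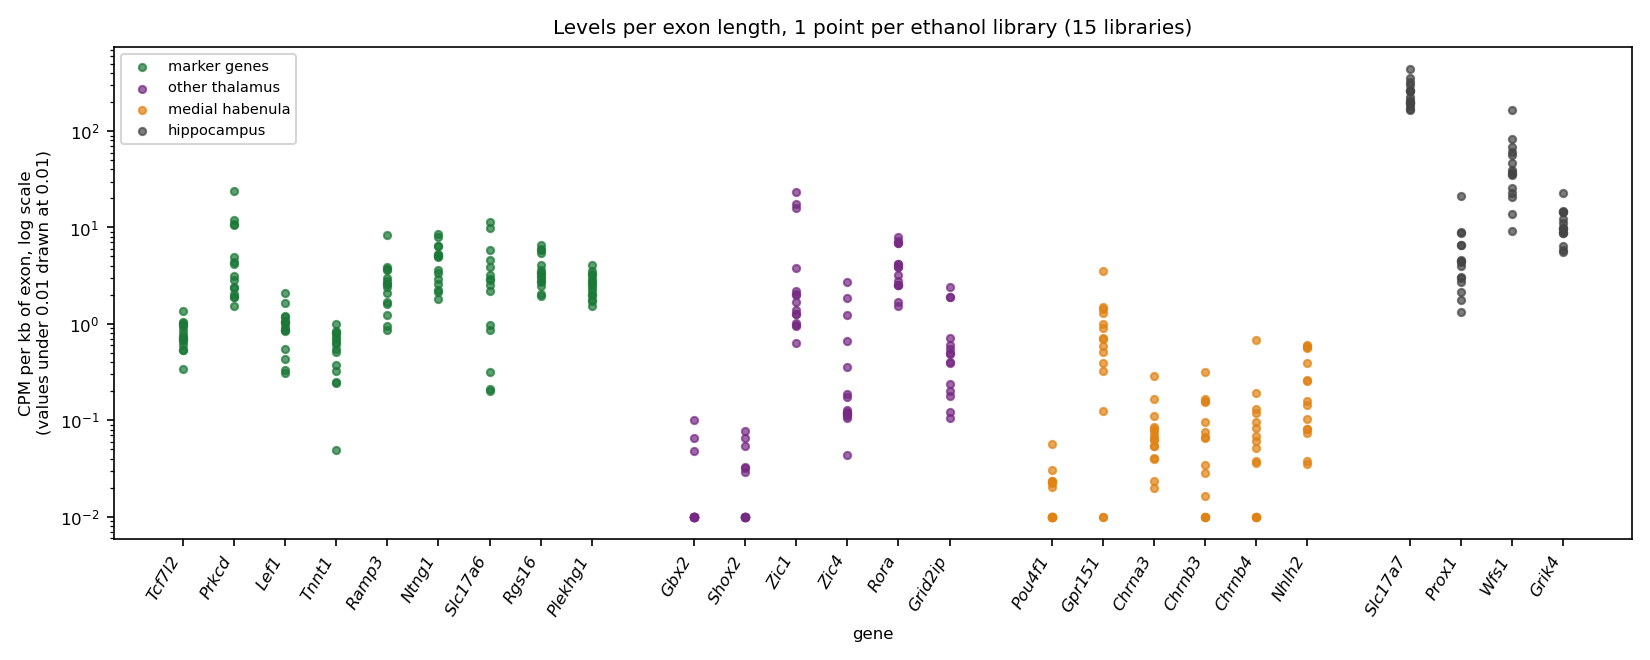
CPM per kilobase of exon on a log axis for the 9 markers and for genes of other thalamus, medial habenula and hippocampus, 1 point per ethanol library (15 libraries), with values under 0.01 drawn at 0.01. The markers lie between 0.0485 and 24.1 CPM per kb, all below Slc17a7, and Gbx2 lies at the bottom of the plot, absent from 12 of 15 libraries.

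The markers differed widely in how much they varied from library to library. Slc17a6 spanned 57.4-fold between its lowest and highest library, Tnnt1 20.5-fold, Prkcd 15.6-fold and Ramp3 9.60-fold, whereas Plekhg1 spanned 2.69-fold. Tnnt1, a slow-muscle troponin T also used as a marker of first-order thalamic nuclei, was the lowest at 0.107 to 2.19 CPM. Its range was close to the counting floor, and its lowest value rested on 1 read.

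The first comparison asked whether the markers differed between the arms in dorsal hippocampus, where the sample protocol places the vector. Slc17a6 had 4.68, 11.9, 1.09 and 5.198 CPM in the 4 dorsal knockdown libraries, against 15.5, 53.6 and 15.7 CPM in the 3 dorsal control libraries. Every knockdown library lay below every control library, and dorsal control 2 stood apart as the highest. Rgs16, which encodes a regulator that switches off G-protein signalling and is known from thalamic relay neurons, had 4.54, 7.27, 4.78 and 6.93 CPM in dorsal knockdown, against 7.97, 13.7 and 9.57 CPM in dorsal control. Its groups did not overlap either, and dorsal control 2 was again the highest. Both fold changes pointed down, at -2.31 on the log2 scale for Slc17a6 (SE 0.93, unadjusted p = 0.0265, adjusted p = 0.997) and -0.84 for Rgs16 (SE 0.33, unadjusted p = 0.0217, adjusted p = 0.985), by the quasi-likelihood test of edgeR with Benjamini-Hochberg adjustment over 14578 genes. Neither passed the threshold of 0.05, and no gene did.

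Members called by edgeR in this dorsal comparison were 0 of 9, beside 0 of all genes (0%), and the 11 genes that DESeq2 called held 0 members. Slc17a6 and Rgs16 were the 2 of 9 members whose unadjusted edgeR p lay under 0.05, a limit that 667 genes (4.58%) met. They were also the 2 of 9 whose groups did not overlap with knockdown lower, an arrangement that 3.33% of all genes had. An exact two-sided permutation test over libraries gave p = 0.0571 for Slc17a6 and p = 0.0286 for Rgs16, the smallest value this design allows, before any adjustment for the 9 members. Without dorsal control 2 the log2 fold changes were -1.44 for Slc17a6 and -0.59 for Rgs16, with unadjusted p = 0.182 and 0.138 by edgeR. The count of members under the unadjusted threshold was then 0 of 9, against 2.75% of all genes. That count was also 0 of 9 without dorsal knockdown 1 or dorsal knockdown 3, against 6.27% and 2.22% of all genes. It was 3 of 9 without dorsal knockdown 2 or dorsal control 1, against 4.78% and 3.26%.

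The other members overlapped between the dorsal arms. Ntng1, which encodes netrin-G1, a membrane-anchored adhesion molecule of thalamocortical axons, had 18.3, 43.1, 24.2 and 17.7 CPM in dorsal knockdown, against 21.3, 40.9 and 70.6 CPM in dorsal control (log2 fold change -0.79, SE 0.48). Lef1 had 8.23, 3.78, 7.60 and 4.80 CPM in dorsal knockdown, against 9.30, 10.4 and 7.67 CPM in dorsal control (-0.58, SE 0.54). Tcf7l2 had 5.96, 4.75, 6.95 and 6.40 CPM in dorsal knockdown, against 8.85, 8.47 and 6.19 CPM in dorsal control (-0.37, SE 0.39). Each of these 3 had at least 1 knockdown library above the lowest control library. Ramp3, which encodes an accessory protein of calcitonin-family receptors, ranged from 1.19 to 11.5 CPM in dorsal knockdown, where dorsal knockdown 4 stood alone at the top, against 3.54 to 5.42 CPM in dorsal control. Counting direction alone, 8 of 9 members had a negative log2 fold change against 46.7% of all genes, and Prkcd was the exception. The members' median log2 fold change was -0.37, beside 0.03 over all genes tested, and leaving out 1 library at a time gave 6 to 9 members below 0.

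**Figure D2:**
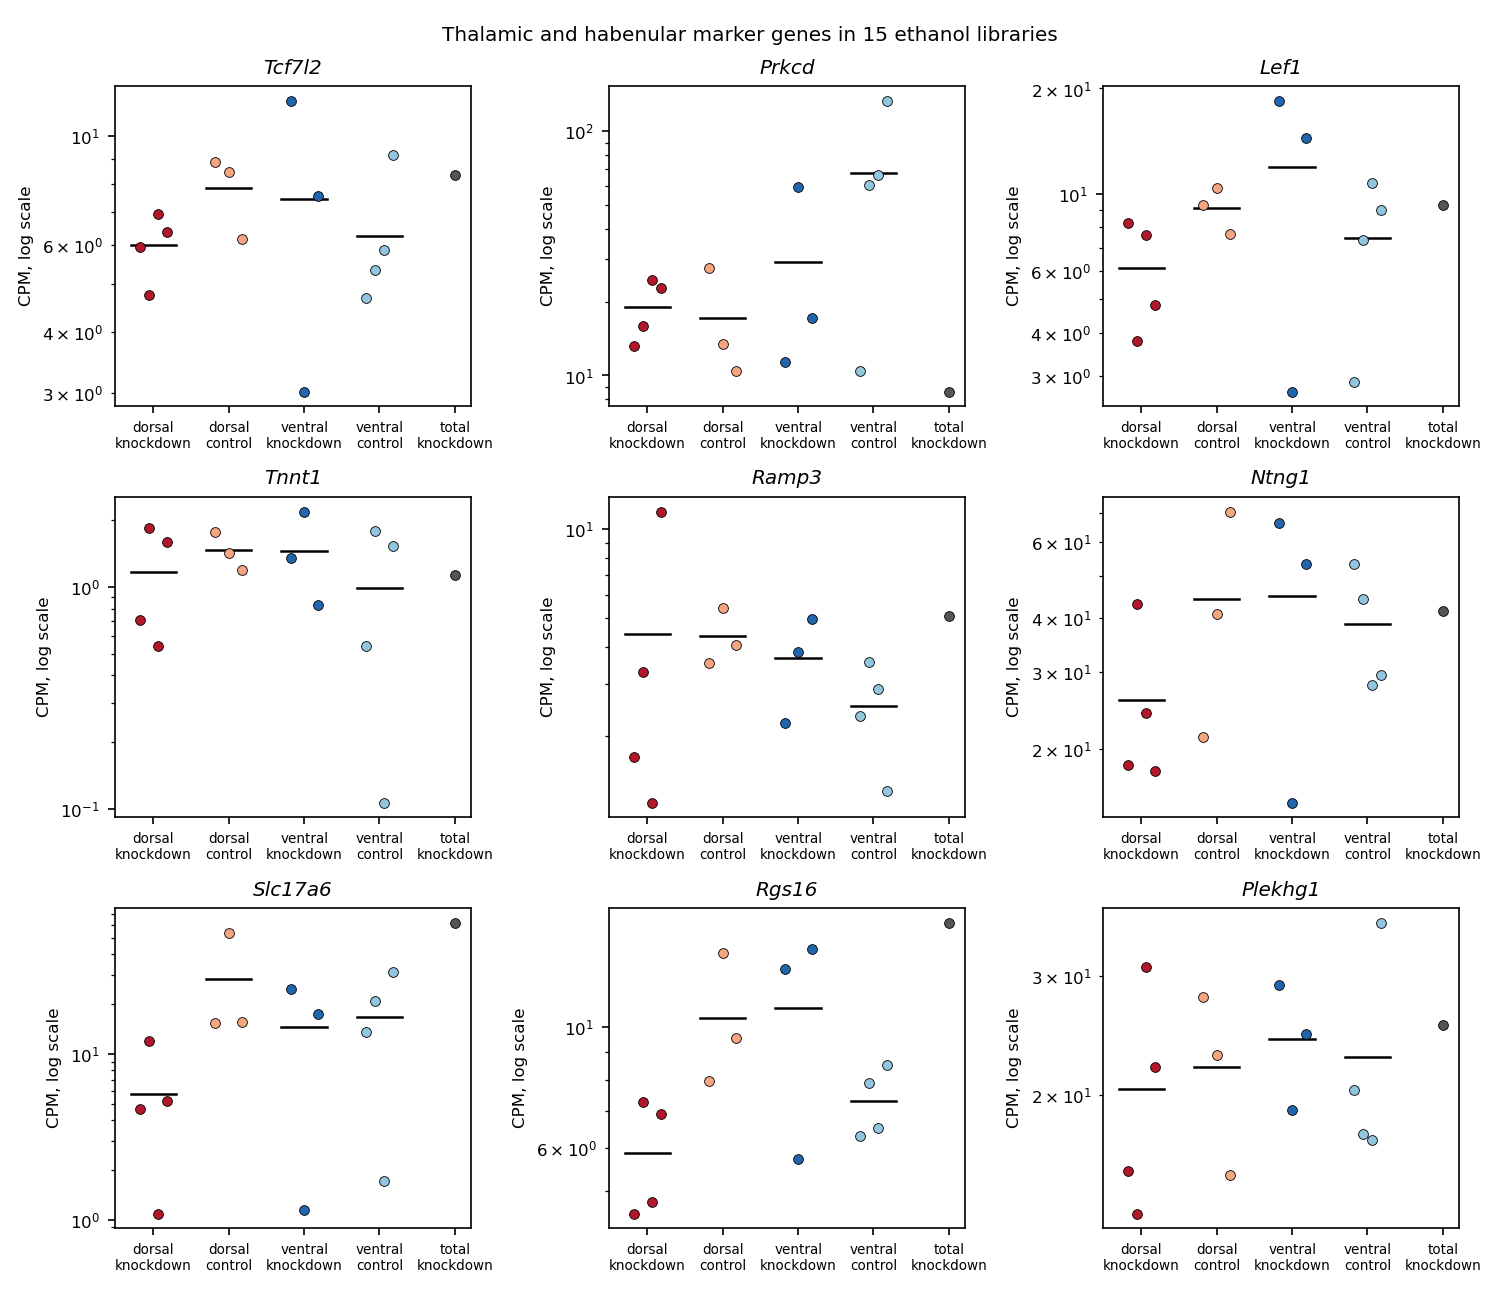
CPM on a log axis for each of the 9 marker genes, 1 point per ethanol library, with groups from left to right dorsal knockdown (n = 4), dorsal control (n = 3), ventral knockdown (n = 3), ventral control (n = 4) and the single library labelled total knockdown, and bars at group means. In dorsal tissue Slc17a6 and Rgs16 separate by arm, and in ventral tissue each gene overlaps between arms, with the library labelled ventral knockdown 3 at the low end of Tcf7l2, Lef1, Ntng1, Slc17a6 and Rgs16.

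In ventral hippocampus most fold changes pointed the other way, and no member passed a threshold. Rgs16 had 12.8, 5.72 and 13.95 CPM in ventral knockdown 2, 3 and 4, against 6.31, 7.88, 6.52 and 8.52 CPM in ventral control. Lef1 had 18.5, 2.71 and 14.5 CPM in the same ventral knockdown libraries, against 2.88, 7.38, 10.7 and 8.96 CPM in ventral control. For both genes 2 knockdown libraries lay above all controls and the library labelled ventral knockdown 3 lay below all controls. Slc17a6 had 24.9, 1.15 and 17.5 CPM in ventral knockdown, against 13.5, 20.9, 1.71 and 31.2 CPM in ventral control, so the library labelled ventral knockdown 3 and ventral control 3 were both low. Prkcd, a protein kinase C isoform that marks first-order thalamic relay neurons, had 11.3, 59.0 and 17.3 CPM in ventral knockdown, against 10.46, 60.3, 66.4 and 133.8 CPM in ventral control. Here the library labelled ventral knockdown 3 was the highest of its arm and ventral control 1 the lowest of the other.

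The ventral log2 fold changes were 0.56 for Rgs16 (SE 0.32), 0.65 for Lef1 (SE 0.53), -0.22 for Slc17a6 (SE 0.92) and -1.22 for Prkcd (SE 0.67). Members under an adjusted p of 0.05 numbered 0 of 9, as did those under an unadjusted p of 0.05, where edgeR found 0 (0%) and 593 (4.07%) of all genes. DESeq2 called 35 genes in this comparison and 0 members. The log2 fold change was above 0 for 7 of 9 members against 48.2% of all genes, with a median of 0.23 for the members and -0.01 for all genes.

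These values moved when the library labelled ventral knockdown 3 was left out. Without it, 8 of 9 members were above 0 and 3 of 9 had an unadjusted p under 0.05, against 6.96% of all genes: Rgs16 at 0.88 (SE 0.29), Lef1 at 1.13 (SE 0.42) and Prkcd at -2.24 (SE 0.73), while Slc17a6 turned to 0.34 (SE 0.87). The edgeR adjusted p was 0.447 for Rgs16, 0.540 for Lef1 and 0.445 for Prkcd in that fit, so none was called. Without ventral knockdown 2 instead, 4 of 9 members were above 0, and without ventral knockdown 4, 7 of 9. In both fits 0 of 9 had an unadjusted p under 0.05 by edgeR, against 5.36% and 3.17% of all genes.

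The remaining members overlapped between the ventral arms. Tcf7l2 had 11.8, 3.02 and 7.54 CPM in ventral knockdown, against 4.69, 5.34, 5.88 and 9.17 CPM in ventral control. Ntng1 had 66.4, 14.99 and 53.5 CPM in ventral knockdown, against 53.5, 44.3, 28.0 and 29.6 CPM in ventral control. The library labelled ventral knockdown 3 was the lowest of the 7 for both genes and for Rgs16, Lef1 and Slc17a6. Plekhg1 lay at 13.4 to 30.9 CPM in dorsal knockdown against 15.3 to 27.9 CPM in dorsal control, and at 19.1 to 29.1 CPM in ventral knockdown against 17.2 to 35.9 CPM in ventral control. Ramp3 lay at 2.22 to 4.96 CPM in ventral knockdown against 1.31 to 3.56 CPM in ventral control. These groups overlapped throughout, with ventral control 4 the highest library for Plekhg1 and the lowest of the ventral ones for Ramp3.

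The difference between the dorsal and ventral arm effects was tested as an interaction in the same model. For Rgs16 the dorsal effect minus the ventral effect was -1.40 on the log2 scale (SE 0.46, unadjusted p = 0.00832, adjusted p = 0.998 by edgeR), which did not pass the adjusted threshold. Rgs16 was the 1 of 9 members under an unadjusted p of 0.05, where 672 (4.61%) of all genes stood. The adjusted threshold called 0 genes (0%) by edgeR and 9 genes, of which 0 were members, by DESeq2. The interaction was -2.09 (SE 1.30) for Slc17a6 and -1.23 (SE 0.75) for Lef1, and 8 of 9 members were below 0 against 45.1% of all genes. Without the library labelled ventral knockdown 3 the value for Rgs16 was -1.71 (SE 0.39, adjusted p = 0.185 by edgeR), and 6 of 9 members had an unadjusted p under 0.05 against 7.43% of all genes. Without ventral knockdown 2 or ventral knockdown 4 instead, 1 of 9 had, against 5.51% and 3.12% of all genes. With 1 library left out at a time, the value for Rgs16 ran from -1.71 to -1.15, the latter without dorsal control 2.

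**Figure D3:**
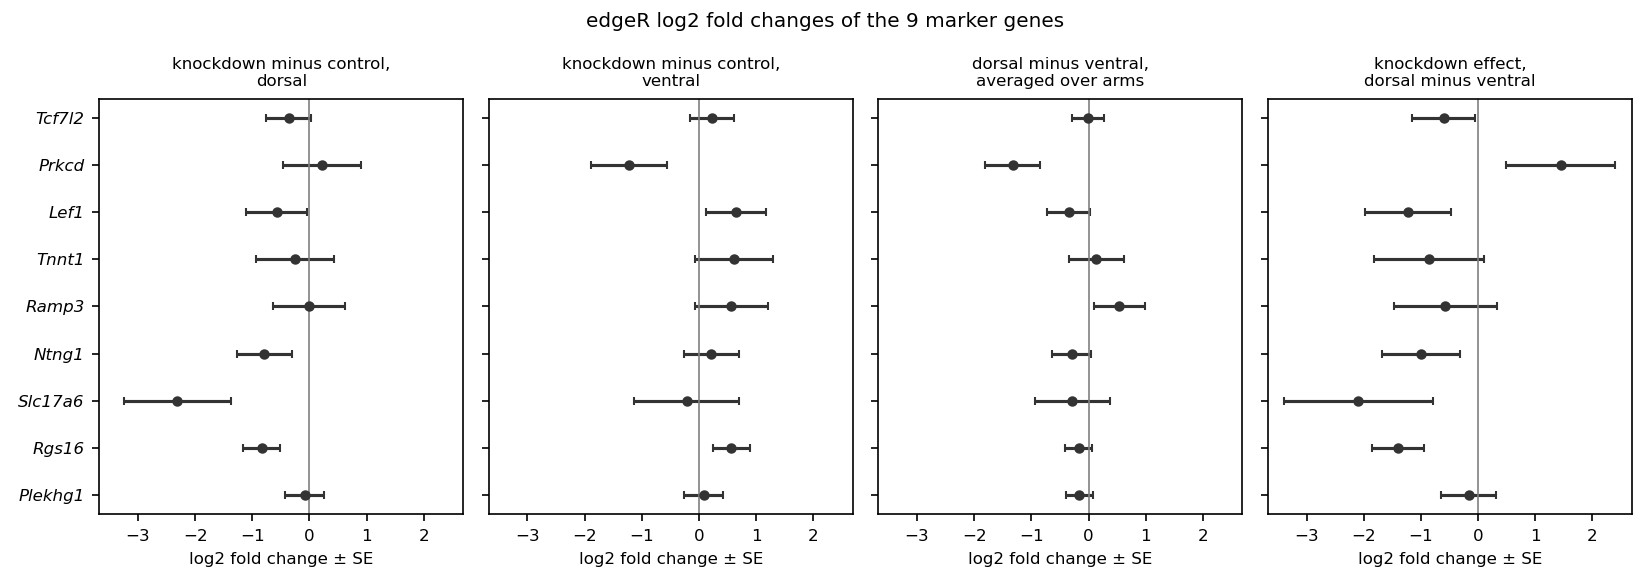
Log2 fold changes with standard errors from the edgeR fit of 14 ethanol libraries for the 9 marker genes, in panels for knockdown minus control in dorsal tissue, the same in ventral tissue, dorsal minus ventral averaged over arms, and the difference of the knockdown effects. Slc17a6 at -2.31 and Rgs16 at -0.84 lie furthest from 0 relative to their error in the dorsal panel, and Prkcd at -1.33 in the regional panel, with none past an adjusted p of 0.05.

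Thalamus and habenula adjoin dorsal hippocampus, so the third question was whether the markers were higher in dorsal than in ventral tissue. Averaged over the arms no member was called, and 7 of 9 had a log2 fold change below 0, against 55.5% of all genes, and the members' median was -0.18 beside -0.04 over all genes. Prkcd stood furthest from 0, with 13.2, 15.9, 24.5, 22.9, 27.5, 13.5 and 10.41 CPM in the 7 dorsal libraries, the first 4 of them knockdown, against 11.3, 59.0, 17.3, 10.46, 60.3, 66.4 and 133.8 CPM in the 7 ventral libraries, the first 3 of them knockdown. The dorsal libraries reached 27.5 CPM at most, 4 ventral libraries had 59.0 CPM or more, and the other ventral libraries lay within the dorsal range. The log2 fold change of Prkcd, dorsal minus ventral, was -1.33 (SE 0.48, unadjusted p = 0.0145, adjusted p = 0.937 by edgeR), and an exact two-sided permutation test within arms gave p = 0.134. It was the 1 of 9 members under an unadjusted p of 0.05, where edgeR found 388 (2.66%) of all genes. Both edgeR (0%) and DESeq2 called 0 genes at the adjusted threshold.

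In the knockdown arm only the library labelled ventral knockdown 3 lay above the dorsal range of Prkcd. The regional value of Prkcd lay further from 0 in the control arm than in the knockdown arm. Within the control arm it was -2.05 (SE 0.71) and within the knockdown arm -0.60 (SE 0.65), and without the library labelled ventral knockdown 3 the averaged value was -0.83 with an unadjusted p = 0.0842 by edgeR. In the control arm Prkcd was the 1 of 9 members under an unadjusted p of 0.05, against 5.58% of all genes. In that arm 0 genes were called by edgeR (0%) and 13 by DESeq2, of which 0 were members. In the knockdown arm the 1 of 9 was Rgs16 at -0.88 (SE 0.32), against 2.17% of all genes, with 0 genes called by edgeR (0%) and 0 by DESeq2. The other members lay closer to 0: the averaged log2 fold change was -0.01 (SE 0.28) for Tcf7l2, -0.28 (SE 0.65) for Slc17a6, -0.18 (SE 0.23) for Rgs16, -0.35 (SE 0.38) for Lef1 and -0.29 (SE 0.34) for Ntng1. The members' direction also differed by arm, with 7 of 9 above 0 in the control arm, against 43.6% of all genes, and 8 of 9 below 0 in the knockdown arm, against 52.1% of all genes. Without the library labelled ventral knockdown 3, the knockdown arm had 6 of 9 below 0 and 4 of 9 under an unadjusted p of 0.05 by edgeR, against 5.71% of all genes, with Rgs16 at -1.19 (SE 0.29, adjusted p = 0.546). Without ventral knockdown 2 or ventral knockdown 4 instead, 0 of 9 were under that limit, against 2.35% and 2.19% of all genes. The regional and arm comparisons share libraries and are not independent.

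Some other genes of the thalamic list, and those of choroid plexus, were high in some of the ventral libraries in which Prkcd was high. Their part in its level was not tested. Zic1, a transcription factor gene of thalamus, septum and meninges, had 91.6, 100.4 and 134.4 CPM in ventral control 2, 3 and 4, the libraries in which Prkcd had 60.3, 66.4 and 133.8 CPM, and at most 21.7 CPM in the other 12. Zic4 had 12.7, 19.0 and 28.2 CPM and Grid2ip 12.97, 12.8 and 16.2 CPM in the same 3 libraries, where both were also at their highest. Of the 16 thalamic list genes tested, 4 had an unadjusted p under 0.05 between dorsal and ventral control by edgeR, against 5.58% of all genes, and 0 were called. The list as a whole had no common direction there, with 8 genes above 0 and 8 below 0. Its median log2 fold change was -0.104, beside -0.065 over all genes. The library labelled ventral knockdown 3 was high in Prkcd and low in Zic1, with 59.0 CPM of Prkcd and 3.64 CPM of Zic1. The summed level of 10 choroid plexus genes was 15640 CPM in ventral control 4, of which Ttr, the thyroid hormone carrier of the choroid plexus, made 14390 CPM, and 47.9 to 641.3 CPM in every other library. Over 15 libraries Pearson's r between Prkcd and Zic1 was 0.70 and Spearman's rho 0.51, and r was 0.37 without ventral control 3 and 4. The Zic1 relation, Zic4 and Grid2ip were chosen after their values were seen and are a description.

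The 9 markers did not vary as 1 block. Over 15 libraries, Spearman's rho was positive for 23 of the 36 pairs of members, with a median of 0.15 and a range of -0.50 to 0.88. Each pair was tested with 100000 permutations of log2 CPM, adjusted over the 36 pairs. Slc17a6 and Rgs16 ran together, with Spearman's rho 0.88 (permutation p = 6e-05, adjusted p = 0.00216) and Pearson's r 0.81 (permutation p = 0.00044, adjusted p = 0.00792). Both were highest in the library labelled total knockdown, at 62.3 and 15.6 CPM, and both were low in dorsal knockdown 3 and the library labelled ventral knockdown 3. Leaving out those 2 libraries gave r = 0.76, and subtracting group means in 14 libraries gave r = 0.81, so the relation also held within groups.

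Tcf7l2 and Lef1, which encode TCF/LEF factors, formed the other close pair, with Pearson's r 0.84 (permutation p = 6e-05, adjusted p = 0.00216) and Spearman's rho 0.75 (permutation p = 0.002, adjusted p = 0.024). Their lowest library was the one labelled ventral knockdown 3, at 3.02 and 2.71 CPM, and their highest was ventral knockdown 2, at 11.8 and 18.5 CPM. Without both, r was 0.70, and with group means subtracted it was 0.85. Tcf7l2 also ran with Plekhg1, which encodes a guanine nucleotide exchange factor, with rho 0.77 (permutation p = 0.00124, adjusted p = 0.0223) and r 0.67 (permutation p = 0.00541, adjusted p = 0.0649). No pair with Prkcd passed the adjusted threshold, and its lowest rho, -0.50, was with Ntng1 (permutation p = 0.0573, adjusted p = 0.206).

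**Figure D4:**
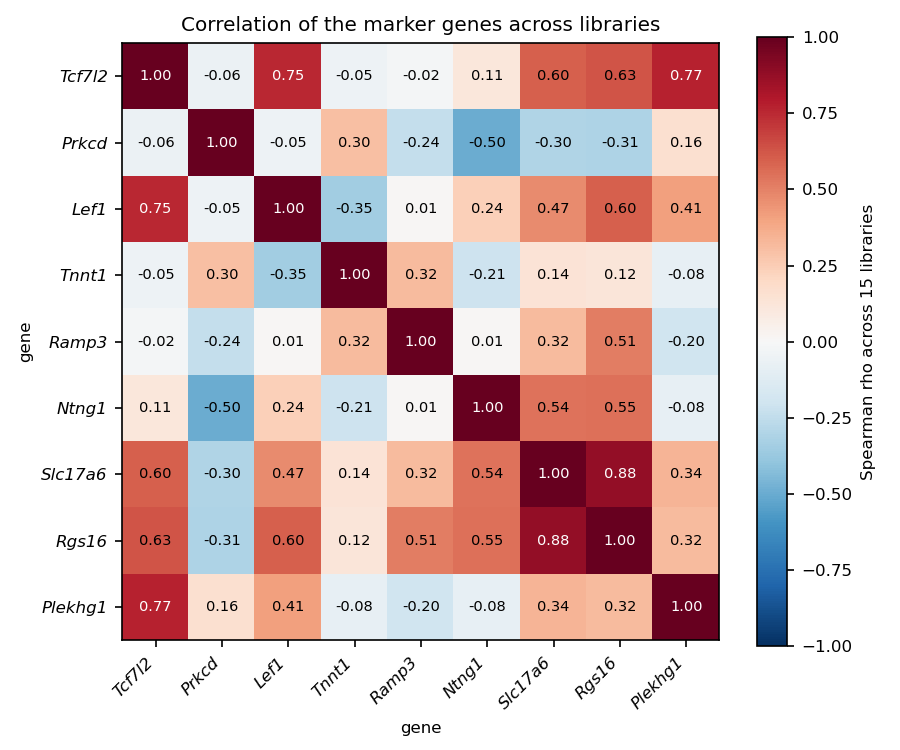
Spearman's rho for each pair of the 9 markers over 15 ethanol libraries. Slc17a6 with Rgs16 at 0.88, Tcf7l2 with Plekhg1 at 0.77 and Tcf7l2 with Lef1 at 0.75 are the strongest pairs, and Prkcd with Ntng1 at -0.50 is the lowest.

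**Figure D5:**
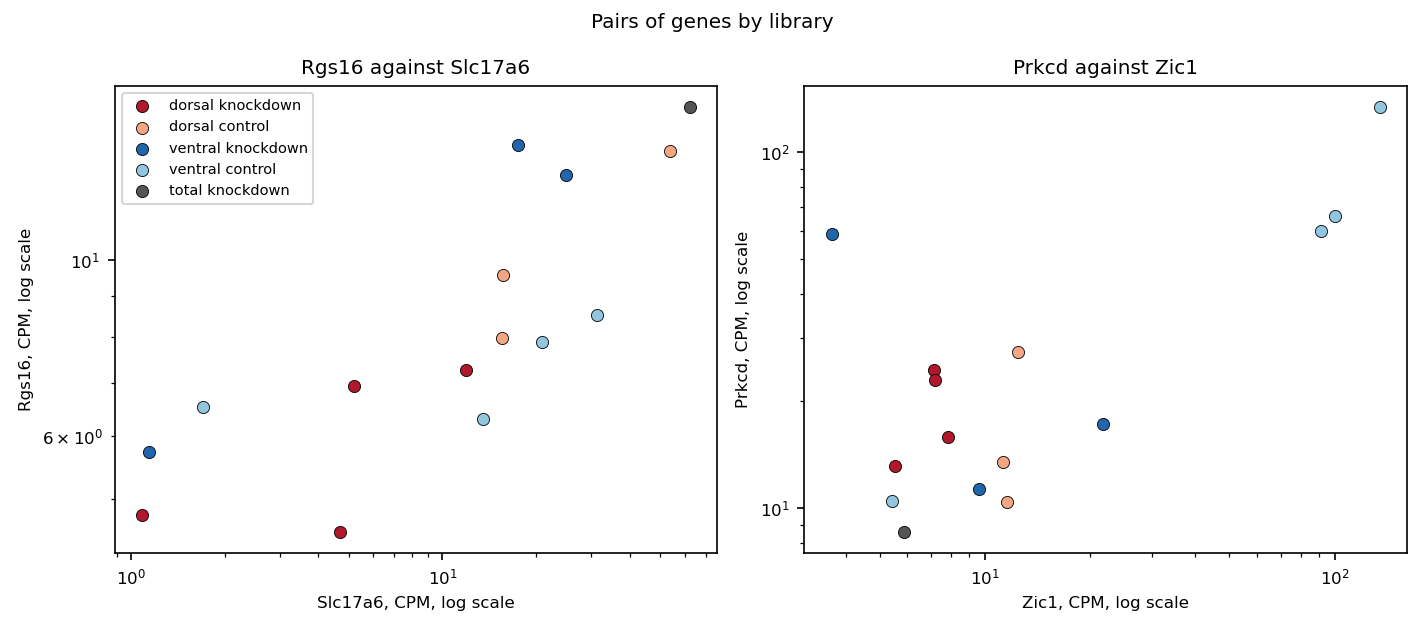
CPM by library on log axes, with Rgs16 against Slc17a6 on the left and Prkcd against Zic1 on the right, coloured by group (15 ethanol libraries). Rgs16 and Slc17a6 rise together across groups, while the right panel sets 3 ventral control libraries apart and shows the library labelled ventral knockdown 3 high in Prkcd alone.

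A technical measure was correlated with the TCF/LEF pair. The proportion of uniquely aligned reads assigned to genes had r = -0.73 and rho = -0.60 with Lef1 (permutation p = 0.00172 and 0.0202, adjusted over 9 members 0.0155 and 0.182), and r = -0.65 and rho = -0.37 with Tcf7l2 (permutation p = 0.00851 and 0.169, adjusted 0.0383 and 0.407). Without ventral knockdown 4 and the library labelled ventral knockdown 3, which had the lowest and highest shares at 57.4% and 81.0%, r was -0.55 for Lef1 and -0.48 for Tcf7l2. For Slc17a6 and Rgs16 r was -0.36 and -0.42, with adjusted permutation p = 0.315 for both. The part of this share in the levels was not tested.

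Other genes of the same pathways and tissues were read for the same contrasts, and none was called over all genes by edgeR in any of the 6 comparisons. Of 18 other thalamic genes, 16 were tested, 10 below 0 and 6 above 0 between the dorsal arms, with a median log2 fold change of -0.10 beside 0.03 over all genes. The 2 highest of them, the neurofilament gene Nefm and the RNA editing enzyme gene Adarb1, had mean levels of 231.6 and 174.7 CPM and are also used widely outside the thalamus, and Adarb1 had a log2 fold change of -0.63 (SE 0.30) there. Of 16 medial habenular genes only 8 were tested, 6 above 0 and 2 below 0 between the dorsal arms, with a median of 0.25. The 2 highest, Lmo3 and Nwd2, averaged 82.7 and 36.6 CPM and had log2 fold changes of 0.28 and -0.515 there. Gpr151 was the 1 of 8 with an unadjusted p under 0.05 by edgeR, against 4.58% of all genes, at 2.455 (SE 0.98). It had 1.28, 1.75, 6.30 and 2.67 CPM in dorsal knockdown, against 0, 0.57 and 0.70 CPM in dorsal control. The sign of the habenular median is opposite to that of the 9 markers, and the difference was not tested.

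Among relatives of the members, Slc17a7 and Slc17a8, which encode VGLUT1 and VGLUT3, had log2 fold changes above 0 between the dorsal arms, while Slc17a6 was below 0. Slc17a7 had 1645 ± 559 CPM in dorsal knockdown (SD, n = 4) and 1368 ± 278 CPM in dorsal control (SD, n = 3), with a log2 fold change of 0.27 (SE 0.30). Of 10 genes of the Wnt pathway and its targets, 9 were tested, 5 above 0 and 4 below 0 with a median of 0.17. Axin2, the feedback inhibitor often read as a sign of pathway activity, had 24.3 ± 5.32 CPM in dorsal knockdown (SD, n = 4) and 26.4 ± 3.94 CPM in dorsal control (SD, n = 3). Ctnnb1, which encodes beta-catenin, ranged from 314.3 to 465.3 CPM over the 15 libraries, a narrower spread than that of any of the 9 markers.

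Neocortical genes had the same sign as Slc17a6 and Rgs16 between the dorsal arms. Of 9 neocortical genes, 8 had a log2 fold change below 0 and 1 above 0 between the dorsal arms, with a median of -0.41, and their summed level was 162 to 471.8 CPM in dorsal knockdown against 319.9 to 453.3 CPM in dorsal control. The summed level of 6 genes of subiculum and entorhinal cortex was 155.9 to 223.1 CPM in dorsal knockdown against 200.5 to 279.1 CPM in dorsal control, and all 5 tested were below 0 with a median of -0.31. The summed level of the 9 markers themselves was 72.8 to 105.3 CPM in dorsal knockdown against 123.5 to 170.3 CPM in dorsal control. Such a separation was not particular to the markers. The sum of 7 CA1 genes was 447 to 744.6 CPM in dorsal knockdown against 753.9 to 908.9 CPM in dorsal control. The sum of 7 other RGS family genes lay apart the other way, at 455.5 to 729.6 CPM against 348 to 392.2 CPM. The part of cortical tissue in the marker levels was not tested.

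Directional libraries were made, but the strand setting of the counting was not given in the sources used here. Rgs16 and Lef1 overlap antisense genes (Gm28513 and Gm43352), Ramp3, Ntng1 and Plekhg1 overlap small genes on the opposite strand, and Slc17a6, Tcf7l2 and Lef1 overlap genes on their own strand, so their counts carry that uncertainty. Prkcd and Tnnt1 overlap no other gene.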

How the data were processed

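RNA of mouse hippocampus was sequenced in 21 libraries, and groups were taken from the sample titles. The values are unnormalized read counts for 24498 genes, as the authors deposited them. The 5 summary lines of the table entered neither library sizes nor tests. The tools were STAR (2.5.2a) and HTSeq (0.6.1p1) and the genome mm10, per the submitters' processing notes. The sources used here do not name the gene annotation for counting, and exon lengths and overlaps were read from GENCODE M21. All sample columns were used.

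Counts of 14 dorsal or ventral ethanol libraries over 1000000 gene reads were fitted in 1 model of 4 group means with edgeR 4.0.16 in R 4.3.3 (TMM scaling, filterByExpr at its minimum count of 10, robust quasi-likelihood F-test), with Benjamini-Hochberg adjustment over 14578 genes and a threshold of 0.05. The fit of all 20 dorsal and ventral libraries, DESeq2 1.42.0, RLE scaling, no filter, a replicate block, only the groups compared and each library left out in turn were alternatives. A gene with a 4-fold change was recovered in 74.2% of cases in the dorsal comparison on simulated data with 14426 genes tested and in 69% in the ventral one with 14460 tested, and a 2-fold change in 11.5% and 14%. Permutation tests used log2 CPM with a prior count of 1, and correlations used log2 of CPM plus 0.25, in Python 3.11.15 with numpy 2.4.6. Floors (3 counts) cover counting error only. Standard errors of log2 fold changes were derived from the edgeR test, as the absolute log2 fold change over the square root of its F statistic. They are approximate and include the spread between libraries.

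The members and the marker lists were chosen with earlier results of these data known. All 9 members are named. Genes most like them were ranked by Spearman's rho with their mean centred log2 CPM, among genes of at least 5 CPM. From each other list the 2 genes with the highest mean CPM were to be named where none was called, and further list genes are named where a result is described beside them. No library within a group duplicated another.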

Additional observations from a re-analysis of the deposited data

Results flagged for a closer look

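Plekhg1 had 35.9 CPM in ventral control 4, against 17.2 to 20.4 CPM in the other ventral control libraries, a gap over the limit of Dixon's test for 4 samples. It was the 1 flag among 18 groups examined, and chance flags about 1 in 20.

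Values outside the comparisons lay above the TMM-scaled levels of all 7 dorsal and ventral ethanol control libraries in the following cases. Only values that rest on at least 3 reads were counted. The library labelled total knockdown had 62.3 CPM of Slc17a6 and 15.6 CPM of Rgs16, where the highest controls had 53.6 and 13.7 CPM. Tcf7l2 stood at 96.5 CPM in untreated dorsal knockdown 1 from 9 reads, at 95.3 CPM in untreated dorsal control 1 from 11 reads and at 27.1 CPM in untreated dorsal control 2 from 6 reads, where the highest ethanol control had 9.17 CPM. Lef1 stood at 26.0 CPM in untreated dorsal control 1 from 3 reads, where the highest ethanol control had 10.7 CPM. Ntng1 stood at 72.1 CPM in untreated dorsal control 2 from 16 reads, where the highest ethanol control had 70.6 CPM. The values of the untreated libraries carry no TMM factor. Without that factor dorsal control 3 had 75.8 CPM of Ntng1, so the Ntng1 case holds only against the scaled levels. The untreated libraries held at most 1.43% of their uniquely aligned reads in genes.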

How the results depend on the processing

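No member passed an adjusted p of 0.05 in any of the 6 comparisons under any alternative that was run. Counts over all genes, 0 by edgeR, were 11, 35, 13 and 9 by DESeq2 in the dorsal arm, ventral arm, control-arm region and interaction comparisons, and 1 each in the ventral arm and interaction comparisons with all 20 libraries. Leaving out 1 library at a time gave 0 to 8 genes in the ventral arm comparison and 0 to 6 in the control-arm region comparison (both highest without ventral control 1), and 0 to 2 in the interaction (2 without the library labelled ventral knockdown 3). The averaged regional log2 fold change of Tcf7l2 was -0.20 to 0.24 with 1 library left out and 0.11 on the permutation scale, that of Slc17a6 was -0.72 to 0.031 and 0.079, and the ventral arm value of Slc17a6 was -0.84 to 0.34. The causes were not tested. The 24 group means checked, those of Tcf7l2, Prkcd, Lef1, Ntng1, Slc17a6 and Rgs16, moved by less than 1 SD with unscaled CPM. The ventral knockdown group keeps 2 libraries when 1 is left out, and changes of 2-fold were mostly not recovered on simulated data of this depth and number.

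Replicate numbers were shared between groups, but libraries with the same number did not deviate together: the correlations of 18 such pairs ran from -0.22 to 0.37, with 6 above 0.1. The fit with a replicate block called 0 genes, and in it the averaged regional value was 0.10 for Tcf7l2 and 0.27 for Slc17a6, the other sign from the fit without the block.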

Other observations

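Among 11369 genes outside the set with at least 5 CPM, those whose level followed the mean of the 9 markers most closely over the 15 ethanol libraries were Cldn1, which encodes a tight junction protein (rho 0.90), Plch1 (0.87), Cobll1 (0.87), Adgra3 (0.86), Sema3f (0.85), Deptor (0.85), Plxdc2 (0.84), Msi2 (0.84), Pogk (0.84) and Grm3 (0.83), which encodes a metabotropic glutamate receptor. They were picked as the highest of many, so rho is a description. Of the 10, 7 were lowest in the library labelled ventral knockdown 3.

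For single members, picked after values were seen, the gene closest to Rgs16 was Chrna4, a nicotinic acetylcholine receptor subunit (rho 0.93, r 0.89), which was also among the 3 closest to Slc17a6 (rho 0.86, r 0.85). The gene closest to Lef1 was Ptprb, a receptor phosphatase of endothelium (rho 0.91, r 0.94).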
